A study of Homo sapiens with 8 samples.

Results

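The genes described here are the Wnt ligands WNT2, WNT2B, WNT5A and WNT5B, the secreted Wnt inhibitors SFRP1, SFRP2, DKK1, DKK2 and DKK3, and AXIN2, a target gene of the pathway. They were picked by gene symbol as a family, and all 10 were found among the 27696 genes of the count table. The filter on low counts kept 9 of them for testing, and SFRP2 did not pass. The RNA came from normal IMR90 cells, a primary fibroblast line from human embryonic lung, which had been kept for 3 days in conditioned medium of IMR90 ER:RAS fibroblasts. ER:RAS cells carry an oncogenic RAS that is switched on by 4-hydroxytamoxifen (4-OHT) and drives them into senescence. A recipient group is called D0, D4, D7 or D10 by the day of 4-OHT on which its medium was collected, and each of these 4 groups holds 2 libraries, replicates 1 and 2, from 2 independent experiments, 8 in all. Every group, D0 included, received conditioned medium from ER:RAS cells, and cells without it were not analysed here. The recipients carry no ER:RAS according to the study, so the values describe a response to medium in a single fibroblast line.

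Wnt proteins are lipid-modified secreted ligands that bind Frizzled receptors. With the co-receptors LRP5 and LRP6 they stabilise β-catenin, which acts with TCF/LEF factors on genes such as AXIN2, while other Wnts act through ROR and RYK receptors without β-catenin. SFRP proteins bind Wnts outside the cell, and DKK1 blocks LRP5 and LRP6. In lung, WNT2 and WNT2B are mesenchymal ligands of the β-catenin branch, and WNT5A is known for β-catenin-independent signalling and for its expression in fibroblasts.

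Total counts lay between 11708193 and 13395912 per library. All 10 fibroblast markers on a fixed list (COL1A1, COL1A2, COL3A1, PDGFRA, PDGFRB, THY1, VIM, DCN, LUM and FAP) had counts in every library, and their summed level was 30386 to 46849 CPM (counts scaled to a common library size with edgeR's TMM method) in 7 libraries and 10131 CPM in D10 replicate 2. COL1A1 alone stood at 1295 CPM in that library and at 8694 to 14499 CPM in the others. Among epithelial markers, 4 of 5 were in the table and summed to 0.316 to 0.82 CPM, and 4 of 5 immune markers summed to 0.582 to 1.47 CPM. The 4 endothelial markers summed to 42.5 to 122 CPM, nearly all from TEK (40.4 to 120.5 CPM). CXCL8, the neutrophil chemokine, was at 189 CPM in D10 replicate 1 and 3012 CPM in D10 replicate 2, so the late libraries of the 2 experiments stood apart and D10 values are given for each.

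Promoter sequences were taken from RefSeq (GRCh38.p14, 250 bases before to 50 after the transcription start) and matched 6 of the 10 genes, with 9 promoters. Promoters of WNT2, the member with the lowest D10 level relative to D0, and of DKK1, a member whose D10 change had opposite signs in the 2 experiments, are shown. Capitals mark a TCF/LEF word, CTTTGAA, which was searched on both strands together with the TCF/LEF word CTTTGAT and the AP-1 word TGANTCA (none of the 3 overlapped another).
WNT2, chr7:117323009-117323308, minus strand: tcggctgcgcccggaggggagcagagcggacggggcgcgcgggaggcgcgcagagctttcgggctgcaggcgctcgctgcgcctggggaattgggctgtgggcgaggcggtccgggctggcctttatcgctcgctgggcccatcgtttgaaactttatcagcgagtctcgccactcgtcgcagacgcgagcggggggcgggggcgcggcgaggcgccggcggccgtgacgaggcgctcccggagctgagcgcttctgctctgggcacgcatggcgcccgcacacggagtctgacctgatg
DKK1, chr10:52314031-52314330, plus strand: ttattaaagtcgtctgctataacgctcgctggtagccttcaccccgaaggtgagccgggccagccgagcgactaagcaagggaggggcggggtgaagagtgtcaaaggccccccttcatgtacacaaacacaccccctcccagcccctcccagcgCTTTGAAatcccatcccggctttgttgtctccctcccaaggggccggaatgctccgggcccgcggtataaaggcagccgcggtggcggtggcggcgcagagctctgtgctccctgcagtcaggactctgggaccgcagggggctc
CTTTGAA occurred in 1 of the 9 promoters, 95 bases before the start of DKK1, and in 4.43% of the 35116 promoters of the table. CTTTGAT and TGANTCA occurred in 0 of the 9, against 2.62% and 7.71% of all promoters. These are matches of letters within a short window and no binding was measured. The GC content of the window was 72.7% for WNT2 and 63.7% for DKK1.

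The members spanned a wide range of expression. Per kb of exon, so that genes can be set side by side, SFRP1 had the highest mean level over the 8 libraries, 502 CPM per kb with a range of 141 to 703, and DKK3 followed with 491 (345 to 584). WNT5A had 47.1 CPM per kb (26.7 to 77.0), WNT5B 35.5 (16.3 to 60.2) and DKK1 7.80 (3.30 to 25.3). WNT2 had 1.24 CPM per kb (0.106 to 4.44), DKK2 0.585 (0 to 1.05), AXIN2 0.377 (0.238 to 0.627), WNT2B 0.209 (0.0803 to 0.352) and SFRP2 0.00955 (0 to 0.0388). Neighbours in this order overlapped in range, except that DKK3 lay above WNT5A, and WNT2B above SFRP2, in every library. The abundant members were thus 2 secreted proteins of the inhibitor families, and all 4 Wnt ligands were less abundant than both.

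**Figure D1:**
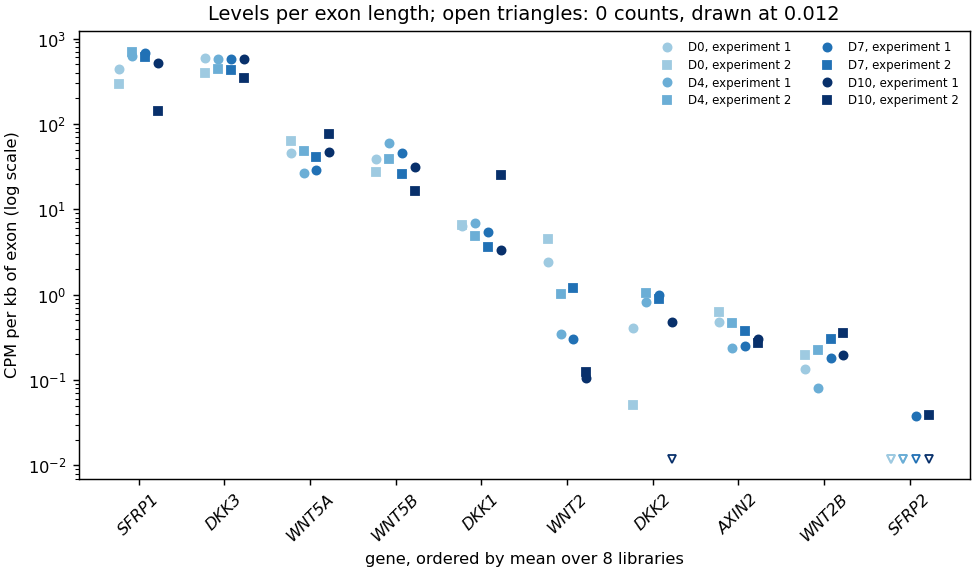
Levels of the 10 genes in CPM per kb of exon (log axis), ordered by the mean over 8 libraries, with circles for experiment 1, squares for experiment 2 and darker blue for later medium. SFRP1 and DKK3 lie above 100 CPM per kb in all libraries, WNT2 descends from D0 to D10, and 0 counts are drawn as open triangles at the foot of the axis, where those of SFRP2 in the same group coincide.

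At an adjusted p under 0.05 in edgeR's quasi-likelihood test (adjusted over 13798 genes by the Benjamini-Hochberg method), 0 of the 9 members tested were called at D4, D7 or D10 against D0, or at D10 against D4. The same test called 0% of all genes at D4, 0% at D7, 0.29% at D10 and 0.00725% at D10 against D4. At an unadjusted p under 0.05, WNT2 was below the threshold on each day, and WNT2 and WNT5B were at D10 against D4. Over all genes, 2.96% passed this unadjusted threshold at D4, 4.34% at D7, 7.94% at D10 and 5.7% at D10 against D4. The experiments differed from each other in every group, and with the experiment as a block the test called 0.275% of genes at D4, 1.25% at D7, 4.99% at D10 and 2.55% at D10 against D4. In this blocked test the members called were WNT2 in each of the 4 comparisons and WNT5B at D10 against D4. DESeq2, which called 0.348%, 0.823%, 2.59% and 0.938% of the genes it gave an adjusted p, called WNT2 at D10 and no other member. The D4, D7 and D10 comparisons share the D0 libraries, so they do not repeat one another.

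The blocked test was also run without either D10 library, an alternative chosen after the data had been seen. The 1 D10 library left then sets only the D10 estimate, so at D4 and D7 both fits rest on the same D0, D4 and D7 libraries. They are therefore not 2 separate results for those days. For D4 and D7, where the D10 libraries only enter the estimate of the spread and of the experiment effect, the calls increased, whereas the other 6 blocked fits without 1 library called 0 members at D4 and at most 1, WNT2, at D7. Without D10 replicate 2, the members called at D4 were WNT2, WNT5B, SFRP1 and DKK2 (3.18% of all genes called), and at D7 they were WNT2, WNT5A, SFRP1 and DKK2 (5.49%). Without D10 replicate 1, the same 4 members and WNT5A were called at D4 (3.42%), and WNT2, WNT5A, SFRP1 and DKK2 at D7 (5.70%). At D10 itself, where 1 library then stood for the group and was assumed to vary like the others, WNT2 and DKK1 were called without replicate 2 (6.32%), and WNT2, WNT5B, SFRP1 and DKK1 without replicate 1 (13.3%).

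**Figure D2:**
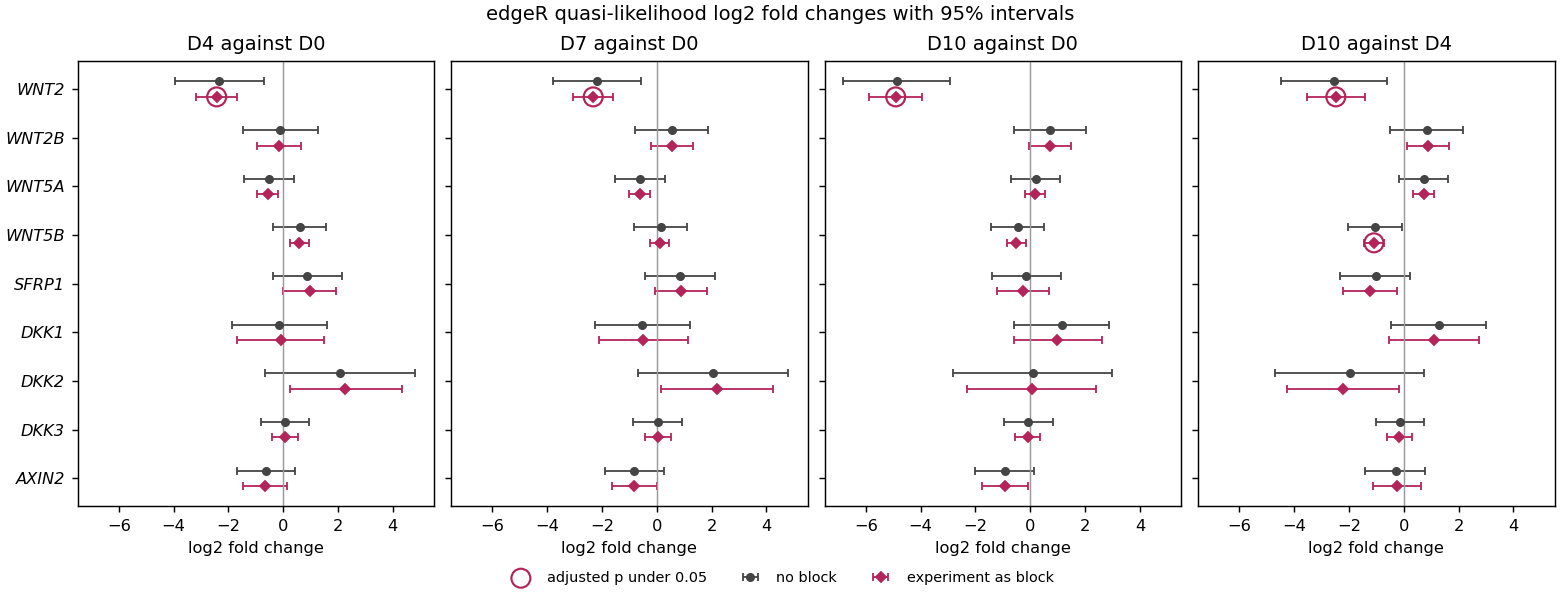
Log2 fold changes of the 9 tested members with 95% intervals from edgeR's quasi-likelihood test on all 8 libraries, without a block (grey circles) and with the experiment as a block (red diamonds), in 4 comparisons. Rings mark an adjusted p under 0.05, which was reached with the block by WNT2 in each panel and by WNT5B at D10 against D4, and by no member without the block.

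WNT2 (ENSG00000105989.8, chr7:117275451-117323289, minus strand, GRCh38) encodes a ligand of the β-catenin branch and was lower than at D0 with each of the later media in both experiments. It was counted 129 and 274 times at D0 (replicates 1 and 2), 20 and 61 times with D4 medium, 18 and 71 times with D7 medium, and 6 and 7 times with D10 medium. These counts are 10.8 and 19.9 CPM at D0, 1.55 and 4.55 with D4 medium, 1.37 and 5.39 with D7 medium, and 0.475 and 0.552 with D10 medium. Both D0 libraries were above all 6 others, and both D10 libraries were below all 6 others. The group means were 15.4 ± 6.46 CPM at D0 (SD, n = 2), 3.05 ± 2.12 at D4, 3.38 ± 2.84 at D7 and 0.514 ± 0.0545 at D10.

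Relative to D0, WNT2 differed on the log2 scale by -2.33 (SE 0.70) at D4, -2.18 (SE 0.70) at D7 and -4.88 (SE 0.84) at D10. The 95% interval at D10 was -6.83 to -2.93. In edgeR's test the adjusted p-values were 1, 0.748 and 0.0716. With the experiment as a block WNT2 fell, the log2 differences being -2.43 at D4, -2.32 at D7 and -4.91 at D10. The blocked test gave adjusted p-values of 0.03, 0.018 and 7.2e-04 (edgeR). DESeq2 gave 0.112, 0.118 and 7.5e-08. Within experiments, the D10 level was 22.8 and 36.1 times lower than at D0, and the D4 level 6.96 and 4.39 times lower. The step from D4 to D10 was a further log2 difference of -2.55 (SE 0.84, adjusted p = 0.644, edgeR), and -2.48 with the block (adjusted p = 0.0336, edgeR).

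The D10 call of WNT2 in the blocked test was kept in all 8 fits that left out 1 library, with adjusted p between 1.2e-06 and 0.00482 (edgeR). Its D4 call was kept only without either D10 library, in 2 of 8 (adjusted p up to 0.307), and its D7 call was lost without any library of D0 or D7 and kept in 4 of 8 (up to 0.198). The call at D10 against D4 was kept in 4 of 8, being lost without either D4 library, D7 replicate 2 or D10 replicate 2 (up to 0.192). In D10 replicate 1 the summed fibroblast markers (34738 CPM) lay within the range of the D0 to D7 libraries. WNT2 was as low there as in D10 replicate 2. Single markers differed from their sum, and 8 of the 10 were lower at D10 than at D0 in both experiments (median log2 difference -0.73). With the block 2 of the 10 were called lower, beside 4.99% of all genes called. The relation of these markers to WNT2 was not tested. RNA from a whole culture cannot tell fewer cells that express a gene from less RNA in each cell. A non-coding gene on the opposite strand, AC002465.1, covers 3.78% of the exon bases of WNT2, and whether counting used strand is not given in the sources used here.

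WNT2B (ENSG00000134245.17, chr1:112466541-112530165, plus strand), the closest relative of WNT2, passed the test in no comparison. Its CPM values were 1.68 and 2.47 at D0, 1.01 and 2.83 with D4 medium, 2.29 and 3.80 with D7 medium, and 2.45 and 4.42 with D10 medium, from 13 to 56 counts per library. Experiment 2 was higher than experiment 1 in every group, and the D10 and D0 libraries overlapped. The log2 difference at D10 was 0.72 (95% interval -0.61 to 2.05, adjusted p = 0.998, edgeR's quasi-likelihood test), and the within-experiment ratios were 1.46 and 1.78. With the block the difference was 0.71 (95% interval -0.05 to 1.47, adjusted p = 0.312, edgeR). The exons of ST7L, on the opposite strand, cover 21.2% of those of WNT2B, so part of this low count may be uncertain.

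WNT5A (ENSG00000114251.14, chr3:55465715-55490539, minus strand), the main ligand of the β-catenin-independent branch, was lower at D4 and D7 than at D0 in both experiments and near its D0 level at D10. It had 334 and 466 CPM at D0, 198 and 358 with D4 medium, 214 and 307 with D7 medium, and 343 and 569.6 with D10 medium. The D7 libraries were both below the D0 libraries, whereas those of D4 and D10 overlapped with them. In both experiments D4 and D7 were below D0, with ratios of 0.591 and 0.767 at D4 and 0.641 and 0.658 at D7. The log2 differences were -0.53 (SE 0.39) at D4, -0.62 (SE 0.39) at D7 and 0.19 (SE 0.39) at D10. Their adjusted p-values were 1, 1 and 0.998 (edgeR), and 0.302, 0.163 and 0.668 with the block. Without D10 replicate 2 the blocked difference at D7 was the same size, -0.62, with an adjusted p of 0.0206 (edgeR), and at D4 it was -0.57 with 0.0507. At D7 WNT5A was called in 2 of 8 blocked fits that left out 1 library, and at D4 in 1 of 8. The 2 at D7 were the fits without a D10 library, which rest on the same D0, D4 and D7 libraries for that day. From D4 to D10 WNT5A differed by 0.72 on the log2 scale (95% interval -0.19 to 1.63, adjusted p = 0.961, edgeR), and by 0.73 with the block (0.35 to 1.11, adjusted p = 0.0618, edgeR).

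WNT5B (ENSG00000111186.12, chr12:1529891-1647243, plus strand), a close relative of WNT5A, had nearly the reverse order of media. It had 165 and 117 CPM at D0, 259 and 167 with D4 medium, 198 and 112 with D7 medium, and 135 and 70.2 with D10 medium. D4 was the highest group in each experiment and D10 the lowest, and experiment 1 was above experiment 2 in every group. Both D4 libraries were above both D10 libraries. At D4 the log2 difference from D0 was 0.60 (SE 0.42, adjusted p = 1, edgeR) and at D10 it was -0.46 (SE 0.42, adjusted p = 0.998, edgeR). With the block these were 0.58 (95% interval 0.23 to 0.93, adjusted p = 0.24, edgeR) and -0.51 (-0.86 to -0.15, adjusted p = 0.117, edgeR). Between D4 and D10 WNT5B fell by 1.09 on the log2 scale in the blocked fit (95% interval -1.45 to -0.73, adjusted p = 0.0153, edgeR), and the difference was -1.05 without the block (adjusted p = 0.824, edgeR). The D10 level was 1.92 and 2.37 times lower than the D4 level in the 2 experiments. This call was kept in 6 of 8 blocked fits without 1 library and was lost without either D4 library.

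The proportion of WNT5A to WNT5B differed accordingly between media. Per kb of exon, WNT5A over WNT5B was 1.18 and 2.32 at D0, 0.444 and 1.25 with D4 medium, 0.63 and 1.59 with D7 medium, and 1.48 and 4.72 with D10 medium. In each experiment the ratio was lowest at D4 and highest at D10, while the level of the ratio differed between experiments by more than it moved from D0 to D10 in experiment 1. No test was run on this ratio. Of the summed CPM per kb of the 12 WNT genes in the table, these 2 ligands made up most in every library, with 27.8 to 75.9% for WNT5A and 16.1 to 62.7% for WNT5B. WNT16, a ligand outside the 10 genes, had 4.03 to 11%. The share of WNT2 was 2.58 and 4.43% at D0 and 0.119 and 0.121% at D10. The summed level itself stayed between 75.3 and 101 CPM per kb.

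**Figure D3:**
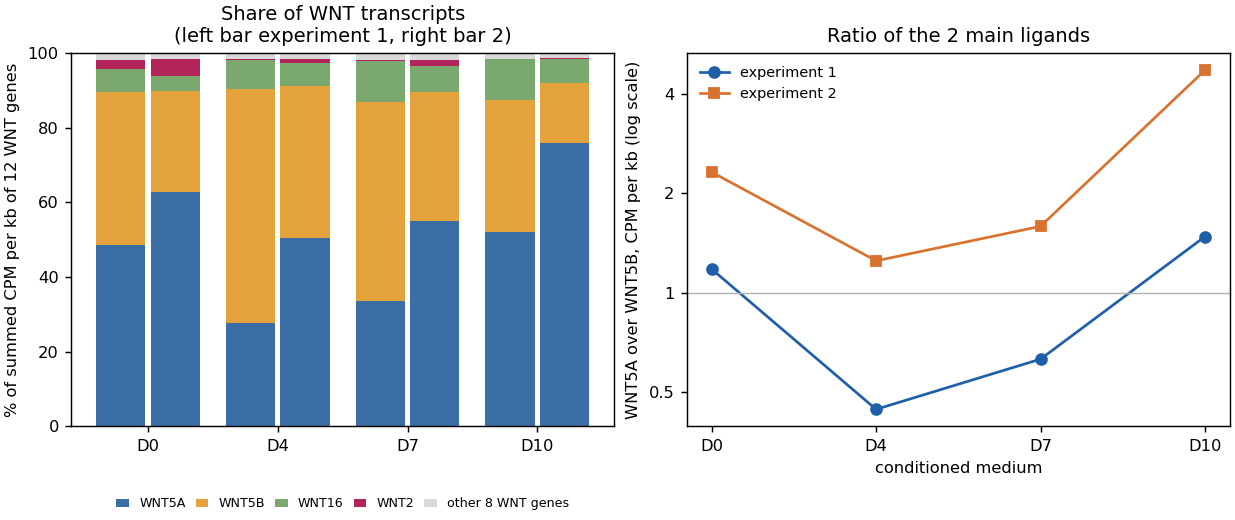
Left, the share of WNT5A, WNT5B, WNT16, WNT2 and the other WNT genes in the summed CPM per kb of 12 WNT genes, in percent, for each library (left bar of a pair experiment 1, right bar experiment 2). Right, the ratio of WNT5A to WNT5B in CPM per kb (log axis) by conditioned medium and experiment, with its lowest value at D4 and its highest at D10 in both lines.

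**Figure D4:**
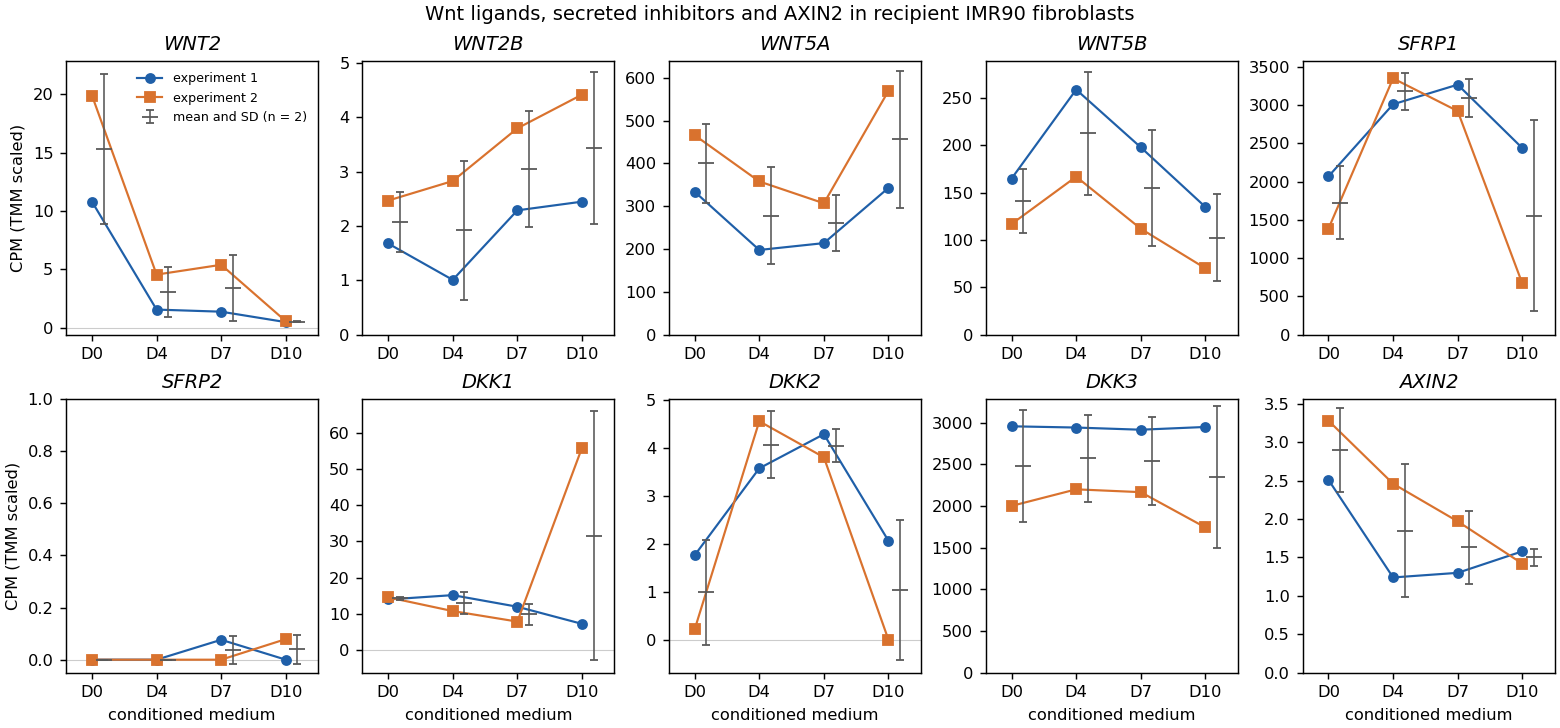
CPM of each of the 10 genes by conditioned medium, with blue circles for experiment 1, orange squares for experiment 2, and grey bars for the mean and SD of the 2 libraries, each panel on its own linear axis. WNT2 and, narrowly, AXIN2 have their D0 libraries above all others, SFRP1 and DKK2 are high at D4 and D7, and DKK1 and SFRP1 part between experiments at D10.

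SFRP1 (ENSG00000104332.11, chr8:41261958-41309497, minus strand) encodes a secreted protein that binds Wnts through a Frizzled-like domain. Its CPM values were 2068 and 1386 at D0, 3009.6 and 3348 with D4 medium, 3266 and 2921 with D7 medium, and 2438 and 670.3 with D10 medium. All 4 libraries of D4 and D7 were above both D0 libraries and both D10 libraries. The means were 1727 ± 483 CPM at D0 (SD, n = 2), 3179 ± 239.6 at D4, 3093 ± 244 at D7 and 1554 ± 1250.2 at D10. The log2 difference from D0 was 0.88 (SE 0.55) at D4 and 0.84 (SE 0.55) at D7, and edgeR's test gave each an adjusted p of 1, and 0.617 and 0.527 with the block.

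SFRP1 was called higher at D4 and at D7 in 2 of 8 blocked fits that left out 1 library, and in none of the others. These were the fits without a D10 library, which rest on the same D0, D4 and D7 libraries for those days. The log2 differences were 0.91 and 0.86 without D10 replicate 2, and 0.92 and 0.86 without D10 replicate 1. At D10 the experiments disagreed, with 1.18 times the D0 level in experiment 1 and 0.484 times in experiment 2. The pooled difference at D10 was -0.15 on the log2 scale (95% interval -1.41 to 1.11) and became 0.50 without D10 replicate 2. From D4 to D10 SFRP1 was lower in both experiments, 1.23 and 5 times, with an adjusted p of 0.957 (edgeR) and 0.189 with the block. D10 replicate 2 is also the library with the lowest summed fibroblast markers, and their part in the SFRP1 value was not tested.

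SFRP2 (ENSG00000145423.4, chr4:153780592-153789120, minus strand), a paralog of SFRP1, was close to undetected. It had 1 count in D7 replicate 1, 1 count in D10 replicate 2 and 0 counts in the other 6 libraries, where a count of 0 allows up to 0.218 to 0.251 CPM, counting error only. No difference between groups was detectable at this depth.

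DKK1 (ENSG00000107984.9, chr10:52314296-52318042, plus strand), the secreted blocker of LRP5 and LRP6, parted between the experiments at D10. It had 14 and 14.6 CPM at D0, 15.2 and 10.8 with D4 medium, 12 and 7.90 with D7 medium, and 7.28 and 55.8 with D10 medium. The D0 libraries were nearly equal, D10 replicate 1 was the lowest library of all and D10 replicate 2 the highest. The D10 level was thus 0.521 times that of D0 in experiment 1 and 3.81 times in experiment 2. Pooled, the log2 difference was 1.14 (95% interval -0.59 to 2.86, adjusted p = 0.946, edgeR's quasi-likelihood test), and it became -0.97 without D10 replicate 2.

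In the blocked fits with a single D10 library, DKK1 rose by 2.13 on the log2 scale when replicate 2 stood for the group (adjusted p = 7.2e-06, edgeR) and fell by 1.15 when replicate 1 did (adjusted p = 0.0232, edgeR). The direction of DKK1 at D10 therefore depended on the library. At D7 it was lower in both experiments, 1.17 and 1.85 times, with a log2 difference of -0.53 (95% interval -2.26 to 1.21, adjusted p = 1, edgeR). CXCL8 also differed between the D10 libraries, being higher in replicate 2, and the relation of the 2 genes was not tested. PRKG1-AS1, on the opposite strand, covers 9.61% of the exon bases of DKK1.

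DKK2 (ENSG00000155011.8, chr4:106921802-107283806, minus strand), a relative of DKK1 that also binds LRP6, was scarce and followed SFRP1. Its counts were 21 and 3 at D0, 46 and 61 with D4 medium, 56 and 50 with D7 medium, and 26 and 0 with D10 medium, which are 1.76 and 0.218 CPM, 3.57 and 4.55, 4.28 and 3.80, and 2.06 and 0. The 4 libraries of D4 and D7 were above all 4 of D0 and D10. The log2 differences from D0 were 2.06 (95% interval -0.68 to 4.79) at D4 and 2.05 (-0.69 to 4.78) at D7, each with an adjusted p of 1 in edgeR's quasi-likelihood test. The blocked fit on all 8 libraries gave 0.549 and 0.421. DKK2 was called higher at each of these days in 2 of 8 blocked fits that left out 1 library. These were the fits without a D10 library, which rest on the same D0, D4 and D7 libraries for those days. The log2 differences were 2.13 at D4 and 2.10 at D7 without D10 replicate 2, and 2.14 and 2.11 without D10 replicate 1.

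In experiment 1 DKK2 was 2.03 and 2.43 times its D0 level at D4 and D7, and experiment 2 started from only 3 counts. The 0 counts of D10 replicate 2 allow up to 0.237 CPM, so that in experiment 2 the D10 level was at least 19.2 times lower than at D4, against 1.73 times in experiment 1. At D10 against D0 the log2 difference of 0.09 had an interval of -2.81 to 2.98, which leaves the direction undetermined.

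DKK3 (ENSG00000050165.17, chr11:11963106-12009769, minus strand), a divergent member of the family, was the steadiest in experiment 1. Its CPM values were 2956 and 2001 at D0, 2941 and 2199.8 with D4 medium, 2915 and 2166 with D7 medium, and 2948 and 1743 with D10 medium. Within experiment 1 the ratios to D0 were 0.995, 0.986 and 0.998 at D4, D7 and D10, and within experiment 2 they were 1.10, 1.08 and 0.871. Experiment 1 was above experiment 2 in every group, by more than any step between media. The log2 difference at D10 was -0.08 with a 95% interval of -0.97 to 0.81 in edgeR's test and -0.57 to 0.37 with the block, so that differences of up to about these sizes remain possible.

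AXIN2 (ENSG00000168646.12, chr17:65528563-65561647, minus strand) encodes a scaffold of the β-catenin destruction complex and is itself induced by β-catenin and TCF/LEF. It had 2.51 and 3.28 CPM at D0, 1.24 and 2.46 with D4 medium, 1.30 and 1.97 with D7 medium, and 1.58 and 1.42 with D10 medium, from 16 to 45 counts. Both D0 libraries were above all 6 others, D0 replicate 1 only narrowly above D4 replicate 2 (2.51 and 2.46 CPM). Scaled by the plain library total instead of TMM, these 2 libraries had the reverse order (2.38 and 2.49 CPM). AXIN2 was 2.02 and 1.33 times lower at D4, 1.94 and 1.66 times at D7, and 1.59 and 2.31 times at D10. The log2 differences were -0.64 (SE 0.46), -0.82 (SE 0.46) and -0.94 (SE 0.47), with adjusted p-values of 1, 1 and 0.739 in edgeR's test, and 0.751, 0.473 and 0.228 with the block. AC004805.1, on the same strand, covers 25.2% of the exon bases of AXIN2, so its low counts are uncertain to that extent.

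The libraries of D4 and D0 did not overlap for 5 of 9 members, against 22.3% of all genes tested. The figures were 6 of 9 against 28.9% at D7, 2 of 9 (WNT2 and AXIN2) against 31% at D10, and 4 of 9 against 25.6% at D10 against D4. These counts used TMM-scaled CPM, and that of AXIN2 at D4 depended on the scaling. With 9 members these shares say little beside the background.

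Likeness was measured over the 8 libraries as Pearson's r of log2 CPM, as a description, over points that share experiments and media. Among the members, SFRP1 and DKK2 were most alike, with r = 0.983, and 0.98 over the 6 libraries left without D0 replicate 2 and D10 replicate 2. WNT2 was most like AXIN2 among the members (r = 0.874), and r was 0.862 without the 2 libraries farthest from the median of WNT2. Without the 2 farthest from the median of AXIN2, which are the 2 D0 libraries, it fell to 0.679. WNT5B was most like DKK3 (r = 0.806), which fell to 0.614 without 2 libraries, and WNT5A most like WNT2B (0.683), which fell to 0.022. Among all genes tested, the gene most like each member was GBP1 for WNT2 (0.99), RAD21 for WNT2B (0.994), PHF10 for WNT5A (0.985) and AC106795.2 for WNT5B (0.978). For the inhibitors it was SCARA3 for SFRP1 (0.986), METTL22 for DKK1 (0.978), SPATS2 for DKK2 (0.983) and ZBTB45 for DKK3 (0.996), and for AXIN2 it was COL15A1 (0.967). With 8 points and 13798 genes searched, values of this size are found for every member.

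Other genes of the pathway were taken from fixed lists. Those named were picked for a D10 change of the same sign in both experiments, so this likeness at D10 was set by the choice. Of 15 other Wnt ligands, 8 were in the table and 3 were tested, with 0 called on any day, and their median log2 difference at D10 was -0.29, beside 0.004 for all genes. WNT16 had a mean of 15.6 CPM at D0 and 26.6 CPM at D10, with ratios of 1.74 and 1.64 in the 2 experiments (adjusted p = 0.679, edgeR, and 0.0534 with the block). WNT3, a ligand of the β-catenin branch, had 3.72 and 2.41 CPM (log2 difference -0.62, adjusted p = 0.95, edgeR).

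Of 15 receptors and co-receptors, 13 were tested, with 0 called at D10 (median -0.19). With the block 2 were called lower, beside 4.99% of all genes called, and DESeq2 called 3, beside 2.59%. The rule for naming genes took only FZD8 and ROR1 from this list. FZD8, a Frizzled receptor, had 11.8 and 6.19 CPM at D0 and 25.9 and 72.9 at D10. Its log2 difference at D10 was 2.46 (adjusted p = 0.27, edgeR, 0.0563 with the block and 0.00611 by DESeq2), with ratios of 2.19 and 11.8 in experiments 1 and 2. ROR1, a receptor for WNT5A, had a mean of 40.8 CPM at D0 and 14 CPM at D10 and fell with the block (adjusted p = 0.044, edgeR), against 0.178 without it, the log2 difference being -1.54. This blocked call was kept in 3 of 8 fits without 1 library.

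Of 12 further secreted or membrane inhibitors, 4 were tested, with 0 called in edgeR's test and 1, TPBG, called higher on each day with the block and by DESeq2 (median of the 4 at D10 -0.21). TPBG, a membrane protein that restrains LRP6 signalling, had 95.8 and 99.4 CPM at D0, 180.0 and 208 with D4 medium, 215 and 277 with D7 medium, and 273 and 291 with D10 medium. It was higher with each later medium in both experiments. With the block TPBG rose, with adjusted p of 0.0487, 0.00828 and 0.0014 at D4, D7 and D10 (edgeR), and without it the adjusted p at D10 was 0.0522 for a log2 difference of 1.53. DESeq2, run without the block, gave 0.0357, 1.7e-04 and 9.9e-07 on the same days. The blocked call of TPBG at D10 was kept in all 8 fits without 1 library, at its weakest only just under the threshold. FRZB, a secreted relative of SFRP1, had means of 1.19 CPM at D0 and 0.395 CPM at D10 (adjusted p = 0.604, edgeR). Of 9 genes of the R-spondin axis, which regulates receptor turnover, 2 were tested and 0 called on any day with or without the block (median at D10 0.02).

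Both genes of the Wnt secretion machinery were tested. WLS, the carrier of Wnts to the cell surface, had a mean of 336 CPM at D0 and 653 CPM at D10 and rose with the block (adjusted p = 0.0372, edgeR), against 0.401 without it, and the blocked call was kept in 4 of 8 fits without 1 library. PORCN, the enzyme that adds the lipid to Wnts, differed by 0.21 on the log2 scale at D10 (adjusted p = 0.998, edgeR). All 15 genes of the β-catenin core were tested and 0 called on any day, with or without the block, with a median of -0.01 at D10. LEF1 and TCF7, transcription factors of the pathway, had D10 ratios of 1.75 and 2.66, and 1.81 and 1.71, in the 2 experiments (adjusted p = 0.328 and 0.534, edgeR).

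Of 14 target and feedback genes, AXIN2 among them, 9 were tested and 1 was called at D10, lower (median 0.37). This was BAMBI, a β-catenin target that encodes a decoy receptor of the TGF-β family. It had 63.9 and 43.2 CPM at D0, 18.2 and 14.8 with D4 medium, 14.6 and 13.7 with D7 medium, and 14.9 and 12.5 with D10 medium, so that all 6 later libraries were below both D0 libraries. At D10 BAMBI fell by 1.97 on the log2 scale (adjusted p = 0.0402, edgeR's quasi-likelihood test). Without any 1 library this adjusted p was between 0.0544 and 0.215, so that the call was lost in all 8 fits, while with the block it was kept in all 8, at 2.9e-05 to 0.00709 (edgeR). At D4 and D7 BAMBI was called with the block (adjusted p = 0.0136 and 0.00568, edgeR) and by DESeq2, and not in edgeR's test without the block (0.723 and 0.251). NKD2, an inhibitor of Dishevelled, had ratios of 1.79 and 6.98 at D10 (adjusted p = 0.834, edgeR).

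**Figure D5:**
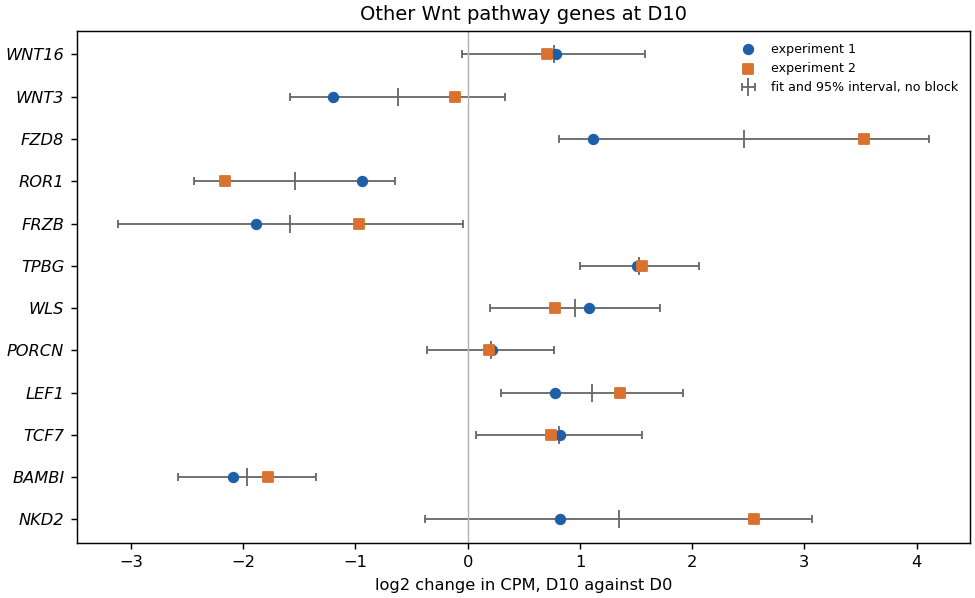
Log2 change in CPM at D10 against D0 for the pathway genes named by rule, with blue circles for experiment 1, orange squares for experiment 2 and grey bars for edgeR's fit without a block and its 95% interval. The rule took genes whose change had the same sign in both experiments, so the 2 points of each gene lie on 1 side of 0 by selection. FZD8 differs most between experiments.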

How the data were processed

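Poly(A) RNA of recipient IMR90 fibroblasts was made into stranded libraries, 2 for each of 4 media. The authors deposited raw read counts per gene for 8 libraries, and the submitters' processing notes name STAR 2.5, DESeq2 and GRCh38. The read counter and its strand setting are not given in the sources used here. The 8 columns of RPM values beside the counts were left out, since they equal these rescaled by the column total. A column headed DO was taken as D0 replicate 1. Identifiers of 27588 genes (99.6%) are in GENCODE 29, which gave positions and exon lengths (the union of all annotated exons).

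Genes were filtered with filterByExpr (minimum count 10), which left 13798, scaled by TMM and tested with edgeR 4.0.16 (R 4.3.3, glmQLFit and glmQLFTest) on all 8 libraries by group, with Benjamini-Hochberg adjustment over all genes and a threshold of 0.05. CPM were computed by edgeR from TMM-scaled library sizes. Log2 CPM used a prior count of 2. Within-experiment ratios set a library against the D0 or D4 library of the same number. Intervals are at 95%, and the floor of 3 counts covers counting error only.

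Replicate numbers pair the libraries: the methods describe 2 independent experiments, and libraries with the same number departed from their groups' means together, with r across genes between 0.418 and 0.722. Adding this replicate block lowered the common dispersion from 0.0792 to 0.0242. Alternatives were DESeq2 1.42.0, its size factors, all genes unfiltered, only genes with 10 or more counts in each library, compared groups only, the block, a 2-fold minimum, a threshold of 0.01 and each library left out. The blocked fits without each library were added after the data had been seen. The scripts were tested on simulated counts.

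Members and lists were chosen with earlier results of these data known. Named genes are the 10 members, the 2 genes of each pathway list with the largest D10 change of the same sign in both experiments (the R-spondin axis had none), any list gene called at D10, and the gene most like each tested member. Markers were fixed lists. COL1A1, TEK and CXCL8 are named outside this rule, after their values were seen.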

Additional observations from a re-analysis of the deposited data

How the results depend on the processing

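The count of members called in edgeR's quasi-likelihood test, 0 in each comparison, was also 0 with DESeq2's size factors, at least 10 counts in every library (7 members tested), only the compared groups, a fold of at least 2 or an adjusted p under 0.01. It was 1 at D10 without the filter and 1 at D10 with DESeq2, WNT2 each time. With the replicate block it was 1 at D4, 1 at D7, 1 at D10 and 2 at D10 against D4. Leaving out each library under the block gave 0 to 5 members at D4, 0 to 4 at D7, 1 to 4 at D10 and 0 to 6 at D10 against D4. Each of these upper counts was reached without D10 replicate 1, where a single library stood for D10. In each comparison that fit also called the most genes among all genes tested. Whether members were called more often than other genes was not tested. In the fit on all 8 libraries, the block changed the call of no member other than WNT2 and WNT5B.

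Without the block, leaving out each library in turn called 0 members and turned the sign of some log2 differences, none of which had passed the test. These ran from -1.04 to 0.44 for WNT2B at D4, from -0.22 to 0.53 for WNT5A at D10, from -0.32 to 0.49 for WNT5B at D7, from -1.35 to 0.5 for SFRP1 at D10, from -0.41 to 0.09 for DKK1 at D4, from -0.97 to 1.98 for DKK1 at D10 and from -6.65 to 2.18 for DKK2 at D10. For DKK3 they ran from -0.2 to 0.37 at D4, from -0.22 to 0.34 at D7 and from -0.49 to 0.25 at D10. For D10 against D4 they ran from -0.84 to 2.1 for DKK1, from -0.56 to 0.2 for DKK3 and from -0.7 to 0.27 for AXIN2. WNT2 at D10 ran from -5.25 to -4.37, with adjusted p of 0.0623 to 0.334 (edgeR). The blocked fits without 1 library also turned signs. At D10 their log2 differences ran from -1.15 to 2.13 for DKK1, from -1.23 to 0.42 for SFRP1 and from -6.43 to 1.74 for DKK2, among others. Apart from the fits that left out a library, no alternative turned a sign.

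The cause of the difference between D10 replicates 1 and 2 was not tested. The 2 libraries a group limit the precision of every estimate, and counts of WNT2 at D10, WNT2B, DKK2 and AXIN2 are few.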
